A study of Mus musculus with 28 samples.

Results

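Stromal matrix and contractile genes encode the collagens, glycoproteins, crosslinking enzymes and smooth-muscle-type contractile proteins that fibroblasts, osteoblasts and smooth muscle cells make in quantity. A set of 36 such genes, of 55487 genes with a value, was read in 28 RNA-seq libraries of mouse bone marrow derived macrophages and compared across 7 groups of 4 libraries. The genes were chosen by name, from Col1a1 to Nid1, with earlier results of the same libraries known, and several had already been seen to differ between groups. Differences between the 7 groups are therefore given for these genes as values with their errors, without a p-value for any single gene. Counts of the genes called are also given, most with the share of all genes beside them. These counts describe the set and are not evidence for it, since the choice of genes used the same differences. All cells were wild type, and no age or sex of the mice was given. The M0 group was cultured for 48 h without polarization. The other 24 libraries came from 48 h with 50 ng/mL IFN-γ or 50 ng/mL IL-10 together with apoptotic T cells, killed by ATP/NAD+ and stained with a fluorescent antibody against CD4. Sorting on that signal then gave 3 populations for each cytokine. They are called Treg-phagocytic where the T cells engulfed were regulatory and Tconv-phagocytic where they were conventional CD4 cells. The population sorted as free of engulfed T cells is called non-phagocytic. The M0 labels name neither T cells nor sorting, so a difference from M0 mixes the cytokine with the co-culture. The labels do not say whether the 4 libraries of a group came from separate mice or cultures, so errors and p-values measure only the spread between these libraries, which may be technical.

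Fibrillar collagens are made as long precursor chains, hydroxylated and folded in the endoplasmic reticulum with the help of the chaperone Serpinh1, secreted, and then crosslinked by the lysyl oxidases Lox and Loxl1. Acta2, Tagln, Myl9, Cnn1, Cald1 and Tpm2 build the contractile apparatus of smooth muscle cells and myofibroblasts. TGF-β and the actin-regulated factor SRF are textbook inducers of both groups. Macrophages make some secreted matrix-associated proteins, such as thrombospondin-1, but are not regarded as a main source of fibrillar collagen. Cultures grown from bone marrow start from a mixed tissue that also holds stromal cells.

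Promoters of a collagen gene and of 2 contractile genes are printed to show which letters of a CCAAT box and of a CArG box, the SRF element, lie near the starts of genes that moved together. The windows run from 250 bases before to 50 after the annotated start, 5′ to 3′ on the gene's strand, from RefSeq on GRCm38.p6. A CArG box was read as CC, 6 bases that are each A or T, and GG, the same on both strands, and a match 1 letter off has 5 such bases of the 6. Capitals mark the matches to CCAAT on either strand (ATTGG on the other), to the CArG box and to the CArG box 1 letter off.

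Col1a2 promoter, chr6:4505368-4505667, plus strand: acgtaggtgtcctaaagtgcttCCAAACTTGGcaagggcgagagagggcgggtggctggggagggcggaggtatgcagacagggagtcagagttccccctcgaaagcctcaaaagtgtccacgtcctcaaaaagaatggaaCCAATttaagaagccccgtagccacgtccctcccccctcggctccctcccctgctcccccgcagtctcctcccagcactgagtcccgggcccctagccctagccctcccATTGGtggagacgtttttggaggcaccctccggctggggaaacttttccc
Acta2 promoter, chr19:34255324-34255623, minus strand: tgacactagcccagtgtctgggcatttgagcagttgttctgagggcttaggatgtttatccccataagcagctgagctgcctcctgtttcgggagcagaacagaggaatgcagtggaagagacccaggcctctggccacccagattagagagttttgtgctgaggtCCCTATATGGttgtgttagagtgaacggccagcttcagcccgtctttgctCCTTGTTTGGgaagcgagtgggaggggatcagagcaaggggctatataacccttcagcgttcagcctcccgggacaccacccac
Myl9 promoter, chr2:156775214-156775513, plus strand: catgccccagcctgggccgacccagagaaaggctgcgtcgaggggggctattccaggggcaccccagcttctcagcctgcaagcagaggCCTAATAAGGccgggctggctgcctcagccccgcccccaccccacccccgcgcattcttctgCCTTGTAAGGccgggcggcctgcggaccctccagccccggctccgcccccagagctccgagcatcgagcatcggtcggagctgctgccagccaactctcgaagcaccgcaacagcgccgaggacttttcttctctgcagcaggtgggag

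A promoter entry was matched for 23 of the 36 genes. A CArG box was found in 1 of the 23, that of Myl9, and in 1.81% of all 27025 genes with a promoter entry. CCAAT was found in 8 of the 23 (Cald1, Cnn1, Col1a2, Col4a1, Col4a2, Nid1, Postn and Thbs2) and in 41.1% of all genes. TATAAA was found in 5 of the 23 (Cald1, Col3a1, Igfbp4, Postn and Thbs2) and in 15.7% of all genes. A match describes letters in this window and is not a measured binding site. With 1 letter off allowed, a CArG match was found in 4 of the 23 (Acta2, Col1a2, Col6a3 and Myl9) and in 11.3% of all genes.

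The libraries differed in depth, which the files do not state and which was estimated from the steps that single reads leave in the values. The IFN-γ libraries had 10.8% to 23.7% of the depth of the deepest library, the IL-10 libraries 49.1% to 91.2% and the M0 libraries 69.0% to 100%. A gene near 1 TPM (the share of a gene's transcripts, corrected for length and scaled to a fixed total) rested on far fewer reads under IFN-γ. Col1a1, for example, rested on about 10097 reads over the 4 IL-10 Tconv-phagocytic libraries and on about 54.5 over the 4 IFN-γ Tconv-phagocytic libraries. No pair of libraries held identical values.

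The summed level of 34 of the genes, leaving out Thbs1 and Igfbp4, separated the groups. It was 325 ± 16.9 TPM (SD, n = 4) in M0, 212 ± 4.22 in IL-10 non-phagocytic, 361 ± 5.02 in IL-10 Tconv-phagocytic and 78.4 ± 3.9 in IL-10 Treg-phagocytic libraries. Under IFN-γ it was 27.4 ± 1.39 in non-phagocytic, 16.2 ± 3.06 in Tconv-phagocytic and 10.005 ± 1.34 in Treg-phagocytic libraries. The highest IFN-γ library stood at 28.9 TPM and the lowest of the other libraries at 76.3 TPM. Thbs1 and Igfbp4 were set apart after their values were seen, because both stayed at 41.5 TPM or more in every library, IFN-γ included. With both included the sums were 667 ± 24.4 TPM in M0, 682 ± 5.69, 898 ± 8.06 and 503 ± 2.12 in the IL-10 non-phagocytic, Tconv- and Treg-phagocytic groups, and 138 ± 12.9, 139 ± 14.3 and 140 ± 9.35 in the same order under IFN-γ.

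**Figure D1:**
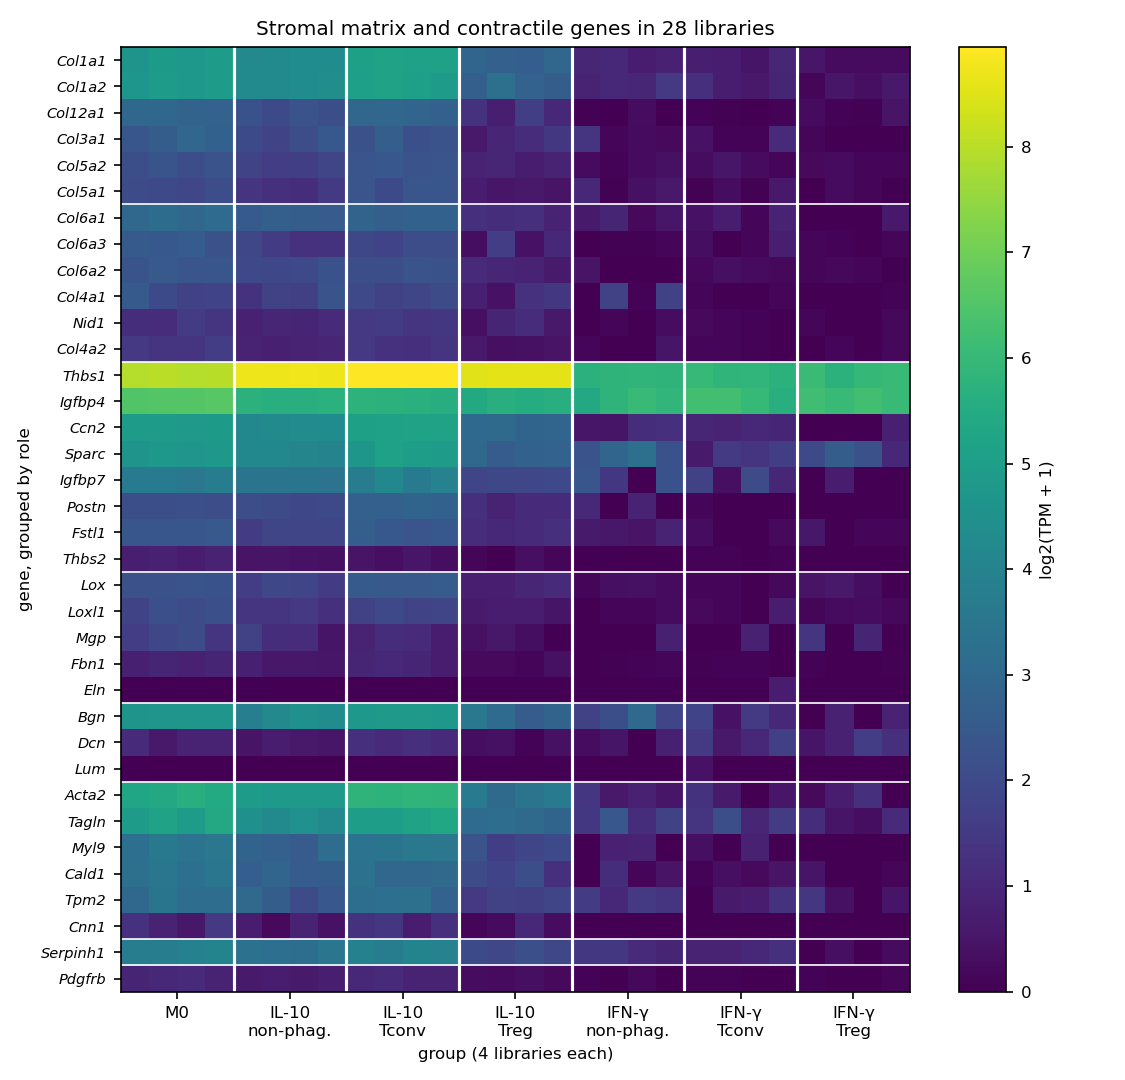
Level of each of the 36 genes (rows, grouped by role) in each of the 28 libraries (columns, 4 per group), as log2(TPM + 1) of the deposited values. Most rows are brightest in M0 and IL-10 Tconv-phagocytic libraries, dimmer in IL-10 Treg-phagocytic libraries and near 0 under IFN-γ, while Thbs1 and Igfbp4 stay well above 0 in every library.

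Of the 36 genes, 31 passed the filter of at least 1 TPM in at least 4 libraries. Thbs2, Fbn1, Eln, Lum and Pdgfrb did not. A mean of at least 1 TPM was reached by 30 genes in M0 and 30 in IL-10 Tconv-phagocytic libraries, by 27 in IL-10 non-phagocytic and 20 in IL-10 Treg-phagocytic libraries, and by 10, 8 and 4 in IFN-γ non-phagocytic, Tconv- and Treg-phagocytic libraries. The highest group mean was in IL-10 Tconv-phagocytic libraries for 19 genes, in M0 for 14 and in IFN-γ Tconv-phagocytic libraries for 3 (Dcn, Eln and Lum).

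Type I collagen led the collagens in level in M0 and all 3 IL-10 groups. Col1a1 (ENSMUSG00000001506, chr11:94936224-94953042 on GRCm38, plus strand) and Col1a2 (ENSMUSG00000029661, chr6:4504814-4541544, plus strand) encode the chains of type I collagen, the main collagen of bone, skin and tendon. Values of a group are the deposited TPM, listed from the lowest library to the highest, and overlap between groups is judged on them. Col1a1 was 23.96, 26.3, 28.5 and 29.6 TPM in M0 and 17.5, 17.8, 19.4 and 19.5 TPM in IL-10 non-phagocytic libraries. It was 33.05, 33.7, 34.1 and 35 TPM in IL-10 Tconv-phagocytic and 5.44, 5.68, 6.48 and 6.75 TPM in IL-10 Treg-phagocytic libraries. With IFN-γ it was 0.6, 0.75, 0.96 and 1.05 TPM in non-phagocytic, 0.43, 0.65, 0.7 and 0.95 in Tconv-phagocytic and 0.19, 0.2, 0.2 and 0.44 in Treg-phagocytic libraries. The 4 groups outside IFN-γ did not overlap with each other, and every IFN-γ library was below all of them. On the log2(TPM + 1) scale, after scaling, Col1a1 differed by -2.31 (SE 0.07) between IL-10 Treg- and Tconv-phagocytic libraries and by -3.80 (SE 0.13) between IFN-γ non-phagocytic and M0 libraries.

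Col1a2 kept close to its partner chain. It was 24.8, 26.5, 28.8 and 28.9 TPM in M0, 17.8, 18.5, 19.2 and 20.5 in IL-10 non-phagocytic and 29.9, 31.9, 31.99 and 34.5 in IL-10 Tconv-phagocytic libraries. IL-10 Treg-phagocytic libraries held 5.29, 5.54, 6 and 8.96 TPM, with 1 library above the other 3. The IFN-γ libraries held 0.87, 0.94, 1.04 and 1.8 TPM (non-phagocytic), 0.54, 0.64, 0.89 and 1.39 (Tconv-phagocytic) and 0.12, 0.28, 0.45 and 0.53 (Treg-phagocytic). The order of the groups was that of Col1a1, and the IL-10 Treg- against Tconv-phagocytic difference was -2.18 (SE 0.14). Under IFN-γ the Treg-phagocytic libraries were all below the non-phagocytic ones for both chains and overlapped with the Tconv-phagocytic ones for Col1a1 at the edge only, at 0.43 and 0.44 TPM.

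Col3a1, which forms thin fibrils in distensible tissues, and Col12a1, which sits on the surface of collagen fibrils, were lower in level. Col3a1 was 4.31, 5.22, 5.8 and 6.82 TPM in M0, 2.59, 2.99, 3.28 and 4.48 in IL-10 non-phagocytic and 3.57, 3.61, 3.84 and 5.56 in IL-10 Tconv-phagocytic libraries. Its IL-10 Treg-phagocytic values were 0.51, 0.96, 1.21 and 1.71 TPM. In the IFN-γ libraries it was 0.12, 0.16, 0.19 and 1.58, 0.05, 0.06, 0.35 and 1.08 and 0, 0, 0 and 0.12 TPM in non-phagocytic, Tconv- and Treg-phagocytic libraries. The IL-10 Treg-phagocytic libraries lay below both other IL-10 groups, which overlapped with each other for Col3a1. Col12a1 was 5.96, 6.12, 7.05 and 7.1 TPM in M0, 3.03, 3.48, 3.81 and 3.84 in IL-10 non-phagocytic, 5.86, 6.59, 6.79 and 6.8 in IL-10 Tconv-phagocytic and 0.68, 1.01, 1.5 and 2.13 in IL-10 Treg-phagocytic libraries. After IFN-γ it stood at 0, 0, 0.03 and 0.23, 0, 0.03, 0.05 and 0.05 and 0.04, 0.06, 0.2 and 0.38 TPM in the same order as for Col3a1. The 3 IL-10 groups did not overlap for Col12a1, and M0 overlapped with IL-10 Tconv-phagocytic libraries. Col5a1 and Col5a2, type V chains that set fibril diameter, ranged over 0 to 4.26 and 0.05 to 4.4 TPM, with group means of 3.91 and 4.13 TPM in IL-10 Tconv-phagocytic and 0.5 and 0.825 TPM in IL-10 Treg-phagocytic libraries.

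Type VI collagen forms beaded microfibrils around cells, and type IV collagen with nidogen (Nid1) forms the network of basement membranes. Col6a1 was 6.8, 7.08, 7.72 and 8.03 TPM in M0 and 4.78, 4.98, 5.17 and 5.54 TPM in IL-10 non-phagocytic libraries. It was 5.46, 5.83, 5.9 and 6.23 TPM in IL-10 Tconv-phagocytic and 0.83, 1.23, 1.37 and 1.38 TPM in IL-10 Treg-phagocytic libraries. IFN-γ values were 0.18, 0.44, 0.55 and 0.9 TPM in non-phagocytic, 0.08, 0.36, 0.61 and 0.81 in Tconv-phagocytic and 0, 0, 0 and 0.54 in Treg-phagocytic libraries. Unlike Col1a1, Col6a1 was nearly level between IL-10 non-phagocytic and Tconv-phagocytic libraries, where the means differed by 1.14-fold and the highest non-phagocytic library was at 5.54 TPM against a lowest Tconv-phagocytic library of 5.46 TPM. Its mean in IL-10 Treg-phagocytic libraries was 0.235 of the non-phagocytic mean, the lowest such ratio of the 27 genes with at least 1 TPM over the IL-10 libraries. Col6a2 and Col6a3 had means of 3.13 and 1.9 TPM in IL-10 non-phagocytic, 3.58 and 2.99 in Tconv-phagocytic and 0.87 and 0.932 in Treg-phagocytic libraries. Col4a1, Col4a2 and Nid1 ranged over 0 to 4.73, 0 to 2.05 and 0 to 2.03 TPM. Col4a1 reached 2.31 and 2.41 TPM in 2 IFN-γ non-phagocytic libraries and at most 0.09 TPM in the other 10 IFN-γ libraries.

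Sparc, a collagen-binding matricellular glycoprotein, and Ccn2, a secreted growth-factor-binding protein induced by TGF-β and by YAP, were close to type I collagen in level outside IFN-γ. Sparc (ENSMUSG00000018593, chr11:55394500-55423183, minus strand) was 23.6, 24.6, 26.3 and 26.4 TPM in M0, 15.1, 15.97, 16.9 and 17.2 in IL-10 non-phagocytic and 25.6, 29.1, 30.5 and 33.6 in IL-10 Tconv-phagocytic libraries. IL-10 Treg-phagocytic libraries held 5.06, 5.87, 6.05 and 6.99 TPM. IFN-γ libraries held 3.74, 3.92, 6.56 and 8.96 TPM (non-phagocytic), 0.56, 1.62, 1.84 and 2.19 (Tconv-phagocytic) and 1.03, 2.96, 3.68 and 5.28 (Treg-phagocytic). Sparc kept more of its level under IFN-γ than type I collagen did, and there the Tconv-phagocytic libraries were all below the non-phagocytic ones, with a log2 difference of -1.44 (SE 0.32). Under IL-10 the same pair of groups stood the other way round, at 0.90 (SE 0.08). Ccn2 (ENSMUSG00000019997, chr10:24595442-24598683, plus strand) was 26.97, 28.3, 28.8 and 29.3 TPM in M0, 17.1, 18.5, 18.9 and 19.1 in IL-10 non-phagocytic, 33.2, 33.4, 34.3 and 34.4 in IL-10 Tconv-phagocytic and 6.35, 6.61, 7.36 and 7.43 in IL-10 Treg-phagocytic libraries. Under IFN-γ it was 0.41, 0.47, 1.26 and 1.31 TPM in non-phagocytic, 0.85, 0.92, 0.96 and 0.99 in Tconv-phagocytic and 0, 0, 0 and 0.72 in Treg-phagocytic libraries, where 3 of 4 were at 0. None of the 4 groups outside IFN-γ overlapped for Ccn2, and the IL-10 Treg- against Tconv-phagocytic difference was -2.14 (SE 0.06).

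Igfbp7, a secreted binder of insulin-like growth factors found in vascular matrix, and Postn (periostin), a matricellular protein of bone and ligament, followed under IL-10. Igfbp7 was 10.8, 11.7, 11.8 and 12.4 TPM in M0, 9.65, 9.9, 9.94 and 10.03 in IL-10 non-phagocytic, 12, 12.9, 14.5 and 16.96 in IL-10 Tconv-phagocytic and 2.62, 2.78, 2.83 and 2.93 in IL-10 Treg-phagocytic libraries. IFN-γ libraries were scattered for Igfbp7, at 0, 1.75, 3.82 and 4.21 TPM in non-phagocytic, 0.29, 0.96, 2.36 and 3.08 in Tconv-phagocytic and 0, 0, 0 and 0.64 in Treg-phagocytic libraries. Postn was 3.32, 3.46, 3.47 and 3.58 TPM in M0, 2.81, 2.95, 3.14 and 3.37 in IL-10 non-phagocytic, 5.67, 5.76, 5.88 and 6.45 in IL-10 Tconv-phagocytic and 0.86, 1.08, 1.13 and 1.3 in IL-10 Treg-phagocytic libraries. The Postn mean in IL-10 Tconv-phagocytic libraries was 1.72 times the M0 mean, where the ratio was 1.25 for Col1a1 and 1.18 for Sparc. With IFN-γ it was 0, 0, 0.79 and 1, 0, 0, 0 and 0.11 and 0, 0, 0 and 0 TPM, so that all 4 Treg-phagocytic libraries were at 0. Fstl1, a secreted follistatin-like protein, ranged over 0 to 5.47 TPM, and Thbs2, a second thrombospondin, over 0 to 0.8 TPM.

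Thbs1 (thrombospondin-1, ENSMUSG00000040152, chr2:118111876-118127133, plus strand), a secreted glycoprotein that can activate latent TGF-β, had the highest mean of the 36 genes in M0 and in all 3 IL-10 groups. Thbs1 was 243, 244, 253 and 255 TPM in M0, 416, 417, 420.0 and 425 in IL-10 non-phagocytic, 480.0, 487, 489 and 491 in IL-10 Tconv-phagocytic and 375, 378, 380.2 and 380.4 in IL-10 Treg-phagocytic libraries. In the IFN-γ libraries it was 53.2, 55.1, 55.6 and 57.1 TPM in non-phagocytic, 53.2, 56.3, 57.5 and 63.05 in Tconv-phagocytic and 52.9, 61.4, 63.9 and 66.8 in Treg-phagocytic libraries. Of the 27 genes with at least 1 TPM over the IL-10 libraries, Thbs1 was the 1 whose mean was higher in IL-10 non-phagocytic than in M0 libraries, by 0.73 (SE 0.03) on the log2 scale. Its order within IL-10 was the same as that of the collagens, with no overlap, but the range was narrow: the Treg-phagocytic mean was 0.777 of the Tconv-phagocytic mean. Between Treg- and non-phagocytic libraries Thbs1 differed by -0.07 (SE 0.02), and that call was lost in each of the 8 fits that left out 1 library. Markers of platelets, which carry thrombospondin-1, summed to 206 ± 8.41 TPM in M0, 1068 ± 25.9, 1320 ± 34.1 and 1196 ± 57.4 TPM in IL-10 non-phagocytic, Tconv- and Treg-phagocytic libraries, and 160 to 205 TPM in the IFN-γ group means. Of those 7 markers 5 passed the filter, and 5 had a mean of at least 1 TPM in each IL-10 group. In IL-10 non-phagocytic against M0 libraries 2 were called higher and 0 lower, against 13.2% and 13.5% of all genes. Pf4 made up most of the sum, while Gp6 had a mean of at most 0.015 TPM and Gp9 of at most 0.235 TPM in any group. The part of platelet RNA in the Thbs1 level was not tested.

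Igfbp4, a secreted inhibitor of insulin-like growth factor action, varied less between the groups. It was 91.4, 93.1, 93.5 and 97.01 TPM in M0, 47.6, 48.8, 51.2 and 53 in IL-10 non-phagocytic, 46.8, 50.1, 52.2 and 54.5 in IL-10 Tconv-phagocytic and 42.4, 45.1, 47.3 and 48.7 in IL-10 Treg-phagocytic libraries. After IFN-γ it stood at 41.5, 55.2, 58.5 and 66.2 TPM in non-phagocytic, 48.1, 63, 73.7 and 74.9 in Tconv-phagocytic and 64.5, 64.6, 72.1 and 74.3 in Treg-phagocytic libraries. All M0 libraries were above all others, and the 3 IL-10 groups overlapped with each other. The IFN-γ against IL-10 non-phagocytic difference was 0.33 (SE 0.12). It ranged from 0.12 (without scaling) to 0.45 over 18 alternatives and was no longer called in 12 of them, which include the replicate block, no filter, a pseudocount of 0.1 and leaving out any 1 library other than IFN-γ non-phagocytic replicate 1.

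Bgn (biglycan), Dcn (decorin) and Lum (lumican) are small leucine-rich proteoglycans that bind collagen fibrils. Bgn was 23.4, 24.1, 24.1 and 24.5 TPM in M0, 13.1, 17.4, 19.2 and 21.5 in IL-10 non-phagocytic, 26.4, 26.5, 27.1 and 27.2 in IL-10 Tconv-phagocytic and 5.05, 6.19, 7.78 and 11.02 in IL-10 Treg-phagocytic libraries. IFN-γ values of Bgn were 2.34, 2.69, 3.47 and 7.33 TPM in non-phagocytic, 0.36, 1.04, 1.87 and 2.5 in Tconv-phagocytic and 0, 0, 0.78 and 0.86 in Treg-phagocytic libraries. The spread of Bgn was wider than that of type I collagen in IL-10 non-phagocytic and Treg-phagocytic libraries, and no 2 of the 3 IL-10 groups overlapped. Dcn had means of 1.23 ± 0.119, 0.492 ± 0.0869 and 0.24 ± 0.118 TPM (SD, n = 4) in IL-10 Tconv-, non- and Treg-phagocytic libraries, and these 3 groups did not overlap. Under IFN-γ its means were 0.343 ± 0.314 TPM in non-phagocytic, 1.4 ± 0.797 in Tconv-phagocytic and 1.14 ± 0.727 in Treg-phagocytic libraries, of which the last 2 groups overlapped with M0, at 0.815 ± 0.262 TPM, and with IL-10 Tconv-phagocytic libraries. Lum was at 0 in 27 libraries and at 0.36 TPM in 1 IFN-γ Tconv-phagocytic library.

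**Figure D2:**
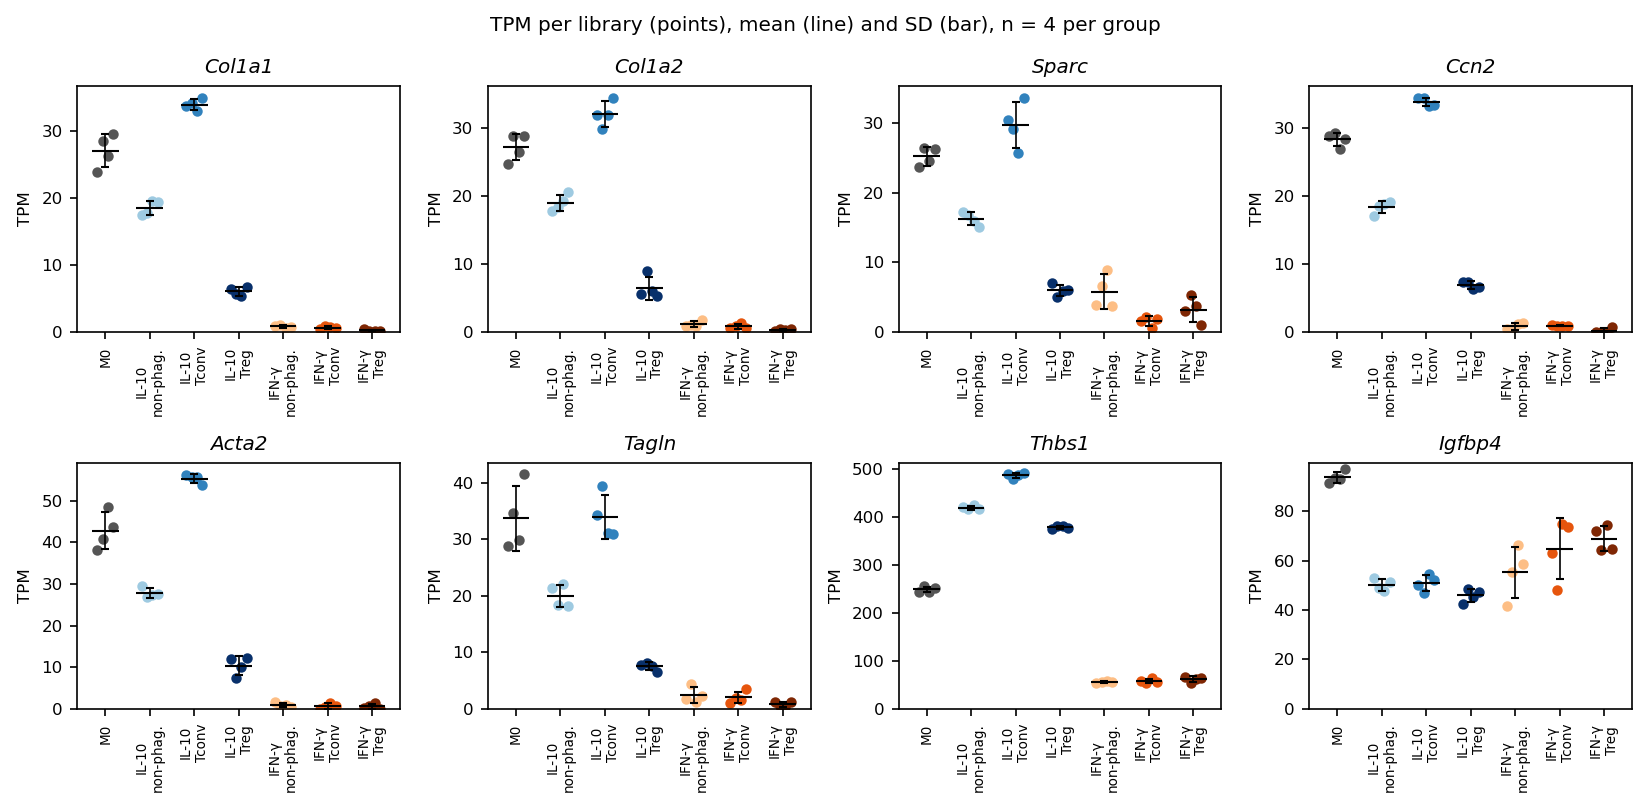
TPM of 8 genes in each of the 28 libraries (points), with the group mean (line) and SD (bar, n = 4) on linear axes from 0. Col1a1, Col1a2, Sparc, Ccn2, Acta2 and Tagln share the order IL-10 Tconv-phagocytic, non-phagocytic, Treg-phagocytic and are lowest under IFN-γ (for Sparc with overlap between IFN-γ and IL-10 Treg-phagocytic libraries), whereas Thbs1 is above M0 in every IL-10 group and Igfbp4 is highest in M0.

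Acta2 led the 6 contractile genes in level in M0 and all 3 IL-10 groups. Acta2 (ENSMUSG00000035783, chr19:34241090-34255590, minus strand), smooth muscle α-actin and the usual marker of myofibroblasts, was 38.1, 40.7, 43.8 and 48.5 TPM in M0 and 26.8, 27.3, 27.7 and 29.5 TPM in IL-10 non-phagocytic libraries. It was 53.8, 55.7, 55.7 and 56.2 TPM in IL-10 Tconv-phagocytic and 7.46, 9.91, 11.9 and 12.2 TPM in IL-10 Treg-phagocytic libraries. IFN-γ libraries held 0.47, 0.52, 0.76 and 1.66 TPM (non-phagocytic), 0, 0.47, 0.58 and 1.46 (Tconv-phagocytic) and 0, 0.17, 0.63 and 1.37 (Treg-phagocytic). Acta2 was highest of the 34 genes in M0 and in all 3 IL-10 groups, no 2 of those 4 groups overlapped, and its IL-10 Treg- against Tconv-phagocytic difference was -2.34 (SE 0.13). About 18.4, 16.5 and 10 reads in all stood behind the IFN-γ non-phagocytic, Tconv- and Treg-phagocytic values of Acta2, and these 3 groups overlapped with each other.

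Tagln (transgelin), an actin-binding protein of smooth muscle, was 28.8, 29.8, 34.6 and 41.5 TPM in M0, 18.2, 18.2, 21.3 and 22 in IL-10 non-phagocytic, 30.9, 31.1, 34.2 and 39.3 in IL-10 Tconv-phagocytic and 6.46, 7.48, 7.78 and 8.1 in IL-10 Treg-phagocytic libraries. Its IFN-γ values were 1.25, 1.74, 2.3 and 4.33 TPM in non-phagocytic, 0.93, 1.59, 1.95 and 3.41 in Tconv-phagocytic and 0.26, 0.42, 1.11 and 1.23 in Treg-phagocytic libraries. M0 and IL-10 Tconv-phagocytic libraries overlapped for Tagln and both lay above the other groups. Myl9, the regulatory myosin light chain, whose promoter with a CArG box is printed above, was 8.6, 9.68, 10.7 and 11.1 TPM in M0, 4.9, 5.77, 6.24 and 8.09 in IL-10 non-phagocytic, 9.69, 9.87, 10.5 and 11.1 in IL-10 Tconv-phagocytic and 2.15, 2.63, 3.03 and 3.88 in IL-10 Treg-phagocytic libraries. Under IFN-γ it was 0, 0, 0.78 and 0.86, 0, 0, 0.29 and 0.77 and 0, 0, 0 and 0 TPM in non-phagocytic, Tconv- and Treg-phagocytic libraries. Myl9 was listed at 0 in all 4 IFN-γ Treg-phagocytic libraries.

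Tpm2, a tropomyosin that lines actin filaments, and Cald1 (caldesmon), which also binds actin and occurs in non-muscle cells, were near Myl9 in level. Tpm2 was 7.07, 8.25, 8.26 and 10.2 TPM in M0, 3.25, 4.34, 5.29 and 7.51 in IL-10 non-phagocytic, 6.09, 8.47, 8.73 and 8.83 in IL-10 Tconv-phagocytic and 1.83, 2.25, 2.43 and 2.64 in IL-10 Treg-phagocytic libraries. With IFN-γ it was 0.99, 1.51, 1.87 and 1.95, 0, 0.56, 0.65 and 1.5 and 0, 0.31, 0.41 and 1.67 TPM in non-phagocytic, Tconv- and Treg-phagocytic libraries. The IL-10 Treg-phagocytic libraries were below both other IL-10 groups, which overlapped with each other for Tpm2. Cald1 was 8.65, 8.89, 10.3 and 10.4 TPM in M0, 5.02, 5.19, 5.42 and 6.63 in IL-10 non-phagocytic, 6.78, 6.82, 7.6 and 9.14 in IL-10 Tconv-phagocytic and 1.34, 2.48, 3.12 and 3.46 in IL-10 Treg-phagocytic libraries. Its IFN-γ values were 0, 0.09, 0.37 and 1.27, 0.07, 0.16, 0.28 and 0.39 and 0, 0, 0.1 and 0.42 TPM in the same order. Cnn1 (calponin) ranged over 0.12 to 1.8 TPM outside IFN-γ and was at 0 in all 12 IFN-γ libraries.

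Serpinh1, the chaperone of procollagen, was 12.7, 12.97, 14.3 and 15.4 TPM in M0, 8.49, 8.67, 9.35 and 10.4 in IL-10 non-phagocytic, 12.6, 14.3, 14.6 and 15.5 in IL-10 Tconv-phagocytic and 2.71, 2.75, 3.06 and 3.5 in IL-10 Treg-phagocytic libraries. In the IFN-γ libraries it was 0.9, 1.14, 1.71 and 1.72 TPM in non-phagocytic, 0.83, 0.83, 1.01 and 1.35 in Tconv-phagocytic and 0, 0, 0.2 and 0.3 in Treg-phagocytic libraries. Here the IFN-γ Treg-phagocytic libraries were below both other IFN-γ groups without overlap, at -0.84 (SE 0.17) against Tconv-phagocytic and -1.10 (SE 0.19) against non-phagocytic libraries. The crosslinking enzymes Lox and Loxl1 had means of 3.77 and 3.17 TPM in M0, 2.38 and 1.59 in IL-10 non-phagocytic, 4.74 and 2.58 in IL-10 Tconv-phagocytic and 0.858 and 0.56 in IL-10 Treg-phagocytic libraries, and at most 0.65 TPM in any IFN-γ library. Mgp, an inhibitor of matrix calcification, ranged over 0 to 3.09 TPM and was higher in mean in IL-10 non-phagocytic than in Tconv-phagocytic libraries, at 1.32 and 0.958 TPM. Fbn1 (fibrillin-1, of elastic microfibrils) ranged over 0 to 1.05 TPM, and Eln (elastin) was at 0 in 27 libraries and at 0.6 TPM in 1. Pdgfrb, the PDGF receptor of pericytes and fibroblasts, had means of 0.96 TPM in M0 and 0.61, 0.925 and 0.225 TPM in IL-10 non-phagocytic, Tconv- and Treg-phagocytic libraries, and at most 0.13 TPM in any IFN-γ library.

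The series asks what efferocytosis of either T cell type does to macrophage transcription, here under IL-10. Group means stood in the order Tconv-phagocytic, non-phagocytic, Treg-phagocytic for 32 of the 36 genes (not for Thbs2, Mgp, Lum and Eln), and 21 of the 31 genes tested kept that order without overlap at either step, against 62 of the 13631 genes tested (0.455%). Against Tconv-phagocytic libraries, Treg-phagocytic libraries were called lower for 25 of the 31 genes and higher for 0 (limma, adjusted p under 0.05), where 0.968% of all genes tested were called lower and 0.411% higher. The median log2 difference was -1.49 over the 31 genes and -0.01 over all genes tested. The 6 genes not called in that comparison were Col4a1, Col6a3, Igfbp4, Cnn1, Mgp and Nid1, of which all but Igfbp4 and Cnn1 had Treg-phagocytic libraries below all Tconv-phagocytic ones. Against non-phagocytic libraries, Treg-phagocytic libraries were called lower for 24 and higher for 0, with a background of 4.7% called lower and 6.44% higher, and a median of -0.82 against -0.01 for all genes. Tconv-phagocytic against non-phagocytic libraries gave 22 called higher and 0 lower, with a background of 4.41% called higher and 1.7% lower, and a median of 0.65 against 0.01. These 3 comparisons share libraries pairwise, and the choice of genes used them, so their counts describe the set.

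By role, the IL-10 Treg- against Tconv-phagocytic comparison had 6 of 6 fibrillar and fibril-associated collagens called lower (median -1.71). It had 3 of 6 type IV and VI collagen and nidogen genes called lower (median -1.03). Of matricellular and secreted genes 6 of 7 were called lower (median -1.73), and of contractile genes 5 of 6 (median -1.50). Of all genes tested 0.968% were called lower. The choice of genes used this difference, so these counts only describe the roles. In ratios of mean TPM, the Treg-phagocytic level was 0.217 of the Tconv-phagocytic level in the median of 27 genes with at least 1 TPM over the IL-10 libraries, with quartiles of 0.2 and 0.284 and a range from 0.128 (Col5a1) to 0.901 (Igfbp4), against a median of 0.999 for 11815 other genes. Against non-phagocytic libraries the median ratio was 0.373 for Treg-phagocytic and 1.65 for Tconv-phagocytic libraries, against 0.944 and 0.949 for other genes. Acta2, Col1a1, Ccn2, Sparc and Postn had Tconv- to non-phagocytic ratios of 1.99, 1.83, 1.84, 1.82 and 1.94. Col5a1 was highest at 2.59, and Col4a1, Col6a1 and Col6a2 were lowest after Igfbp4, at 1.11, 1.14 and 1.14. In these bulk libraries fewer cells of a type and less RNA per cell cannot be told apart.

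**Figure D3:**
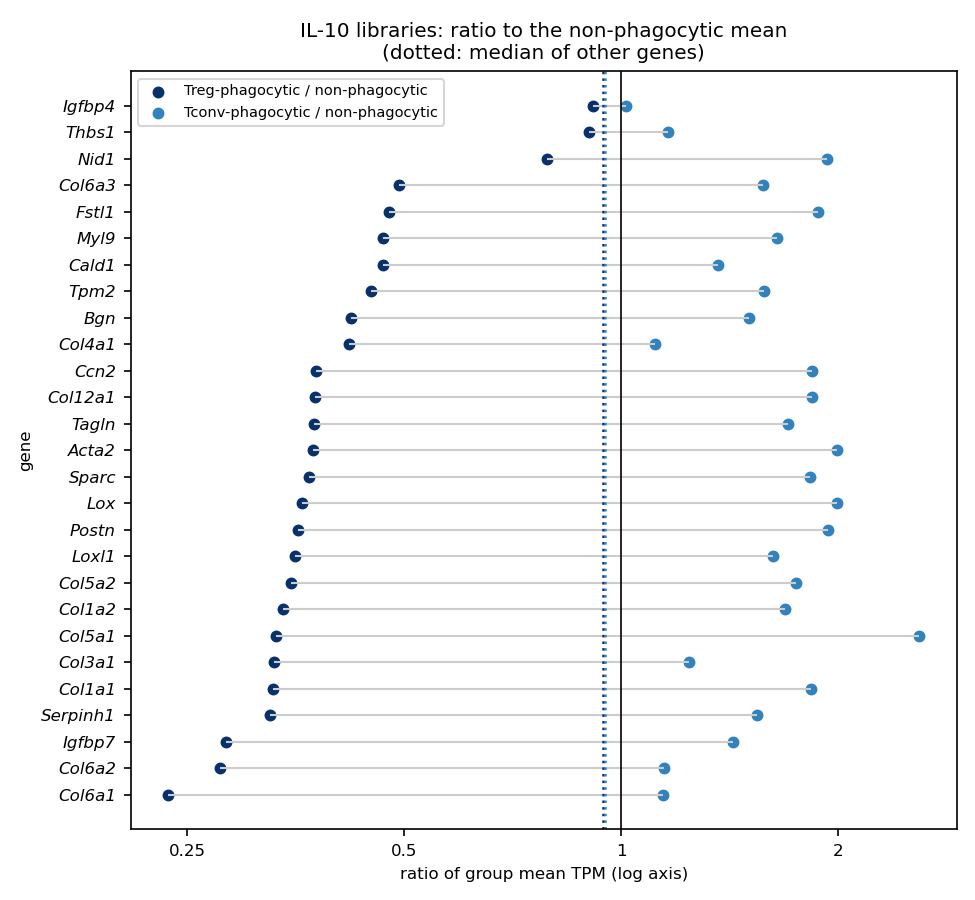
Ratio of the group mean TPM to the IL-10 non-phagocytic mean (log axis) for the 27 genes with at least 1 TPM over the IL-10 libraries, for Treg-phagocytic (dark) and Tconv-phagocytic (light) libraries. Dark points lie between 0.235 and 0.915 and light points between 1.01 and 2.59, with the median of other genes (dotted) at 0.944 and 0.949.

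The cytokines were compared in non-phagocytic libraries and with M0. IFN-γ non-phagocytic libraries were called lower than IL-10 non-phagocytic libraries for 28 of 31 genes and higher for 1 (Igfbp4, the call lost in 12 of 18 alternatives), with 29.7% of all genes called lower and 22.9% higher, and the median difference was -1.46 against -0.08 for all genes. Against M0, IFN-γ non-phagocytic libraries were called lower for 29 of 31 genes and higher for 0, where 30.8% of all genes were called lower and 23.8% higher, with a median of -1.97 against -0.09. Col4a1 and Dcn were the 2 genes not called. Of the 36 genes, 10 had a mean of at least 1 TPM in IFN-γ non-phagocytic and 30 in M0 libraries. Many thus passed the filter through M0 and IL-10 libraries, which favours calls of lower in both comparisons with IFN-γ. IL-10 non-phagocytic libraries were called lower than M0 for 24 genes and higher for 1 (Thbs1), with 13.5% of all genes called lower and 13.2% higher, and a median of -0.57 against -0.0022. For ratios of mean TPM to M0, 30 genes of the set and 11726 other genes had an M0 mean of at least 1 TPM. That mean is also the denominator, which favours low ratios in both sets of genes. The median of the 30 genes was 0.0706 of M0 in IFN-γ non-phagocytic, 0.0548 in IFN-γ Tconv-phagocytic and 0.0182 in IFN-γ Treg-phagocytic libraries. It was 0.795, 0.815 and 0.753 for the other genes. IL-10 non-phagocytic libraries held 0.641 and IL-10 Tconv-phagocytic libraries 1.071 of the M0 level in the median of the 27 genes, the nearest to M0 of the groups by this measure. The mean log2 scaling factors differed by -0.21 between the groups of the IFN-γ against IL-10 comparison and by -0.18 between those of the IFN-γ against M0 comparison. Leaving out the scaling moves genes far above 1 TPM in both groups by about that much, and median scaling moves them by 0.11 in the latter, while genes near 0 in both groups move less.

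Within IFN-γ most of the 36 genes had group means under 1 TPM, while Thbs1 and Igfbp4 stayed far above it. Treg- against Tconv-phagocytic libraries gave 1 gene called lower, Serpinh1, and 0 higher, where 7.86% of all genes were called lower and 3.92% higher. The median was -0.09 against 0.01 for all genes. Treg-phagocytic against non-phagocytic libraries gave 2 called lower, Serpinh1 and Bgn, the latter at -1.81 (SE 0.37), and 0 higher, where 5.88% of all genes were called lower and 2.27% higher, with medians of -0.44 and 0.01. Tconv-phagocytic against non-phagocytic libraries gave 0 genes of the set called by limma, with 5 at an unadjusted p under 0.05, where 1 gene of all (0.00734%) was called and 860 had an unadjusted p under 0.05. In 1 fit of all 28 libraries the counts called were 9 (2 higher), 15 (3 higher) and 1 in these 3 comparisons, in that order. That fit called 4171, 3629 and 107 of all 13631 genes tested. Without non-phagocytic replicate 2, or without Treg-phagocytic library Ax647-1 or BV421-1, Bgn was no longer called, at -1.83, -1.66 and -1.66. Without Tconv-phagocytic library Ax647-2 or Treg-phagocytic library BV421-2, the Treg- against Tconv-phagocytic comparison called 2 genes of the set. Over all genes these 2 fits called 1007 and 1248. The summed level of the 34 genes was nonetheless separate in all 3 IFN-γ groups, at 25.7 to 28.9 TPM in non-phagocytic, 13.0 to 19.9 TPM in Tconv-phagocytic and 8.29 to 11.3 TPM in Treg-phagocytic libraries. Sparc made up 5.79, 1.55 and 3.24 TPM of those sums in the mean.

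The antibody dye, BV421 or Ax647, is a technical difference that the choice of genes did not use. Titles and library names of all 8 Treg-phagocytic libraries give different dyes, and the dye of the title is used here. Among the 8 IL-10 phagocytic libraries, with the kind of T cell in the model, limma called 0 of the 31 genes and 1 of all genes tested (0.00734%) at an adjusted p under 0.05, and 1 of the 31 and 618 of all had an unadjusted p under 0.05. Among the 8 IFN-γ phagocytic libraries it called 0 of the 31 and 0 of all genes (0.0%), with 0 and 617 at an unadjusted p under 0.05. The median BV421 minus Ax647 difference of the 31 genes was -0.0015 under IL-10 and 0.0042 under IFN-γ, and that of the fibrillar and fibril-associated collagens was 0.03 under IL-10. With 2 libraries for each dye and kind of T cell, the IL-10 Treg- against Tconv-phagocytic comparison called 1 of the 31 genes within BV421 and 0 within Ax647. For all 25 genes called in the whole comparison, every Treg-phagocytic library was below every Tconv-phagocytic one after scaling. Their direction within each dye was therefore fixed in advance and is no further support.

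Markers of the cells that the cultures could hold were read beside the set. Macrophage markers were high in all libraries: 10 of them summed to between 17951 and 22684 TPM per library, and Lyz2, C1qb and Cd68 led. Of 17 mesenchymal markers outside the set, 5 passed the filter. Of all 17, 2 were at 0 in all 4 M0 libraries and 3 had an M0 mean of at least 1 TPM. All the others were above 0 in at least 1 M0 library. The markers named next were picked for their low level and do not stand for the list. Tcf21 was at 0 in every group, Dpt at 0 in M0 and all IL-10 groups, and Lepr at or under 0.09 TPM in the mean of every group. Pdgfra had means of 0.388 TPM in M0, 0.285, 0.375 and 0.065 TPM in IL-10 non-phagocytic, Tconv- and Treg-phagocytic libraries and at most 0.205 TPM under IFN-γ. Their sum, 25.4 to 30.0 TPM in M0, 24.1 to 30.9 TPM over the IL-10 libraries and 48.4 to 80.4 TPM over the IFN-γ libraries, rested on Runx2, Pdpn and Thy1, of which Thy1 is also a T cell gene in mice and had means of 35.5 to 47.0 TPM under IFN-γ and 4.53 TPM in M0. The part of mesenchymal cells in the level of the matrix genes was not tested.

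T cell markers moved with the groups too. Their 8 genes summed to 38.9 ± 20.2 TPM in M0 and, under IL-10, to 45.0 ± 3.76 in non-phagocytic, 68.1 ± 11.2 in Tconv-phagocytic and 104 ± 7.41 TPM in Treg-phagocytic libraries. Under IFN-γ they summed to 314 ± 78.3, 342 ± 39.1 and 375 ± 72.8 TPM in the same order. All 8 were called higher in IL-10 Treg-phagocytic than in non-phagocytic libraries, 4 of 8 in Tconv-phagocytic than in non-phagocytic libraries, and 1 of 8, Cd3d, in Treg- than in Tconv-phagocytic libraries (limma, log2 difference 0.58, adjusted p = 0.0203). T cell marker sums were highest in the IFN-γ groups, and the summed matrix genes were lowest there. Under IL-10, Tconv-phagocytic libraries were above non-phagocytic ones in both sums. Treg-phagocytic libraries had the highest T cell sum of the IL-10 groups and the lowest matrix sum. The part of T cell RNA in the result was not tested. Adipocyte and osteoblast markers summed to 132 ± 7.47 TPM in M0 and 146 ± 9.33, 190 ± 8.8 and 247 ± 13.9 TPM in IL-10 non-phagocytic, Tconv- and Treg-phagocytic libraries. Of these 7 markers 2 passed the filter, and only 1 had a mean of at least 1 TPM in IL-10 Treg-phagocytic libraries. Between IL-10 Treg- and Tconv-phagocytic libraries 1 was called higher and 1 lower, against 0.411% and 0.968% of all genes. The sum therefore does not speak for the list as a whole. Endothelial markers summed to 4.62 to 15.8 TPM over all libraries, neutrophil markers to 13.1 to 62.6 TPM, and of 5 epithelial markers none passed the filter, with sums of at most 1.73 TPM.

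**Figure D4:**
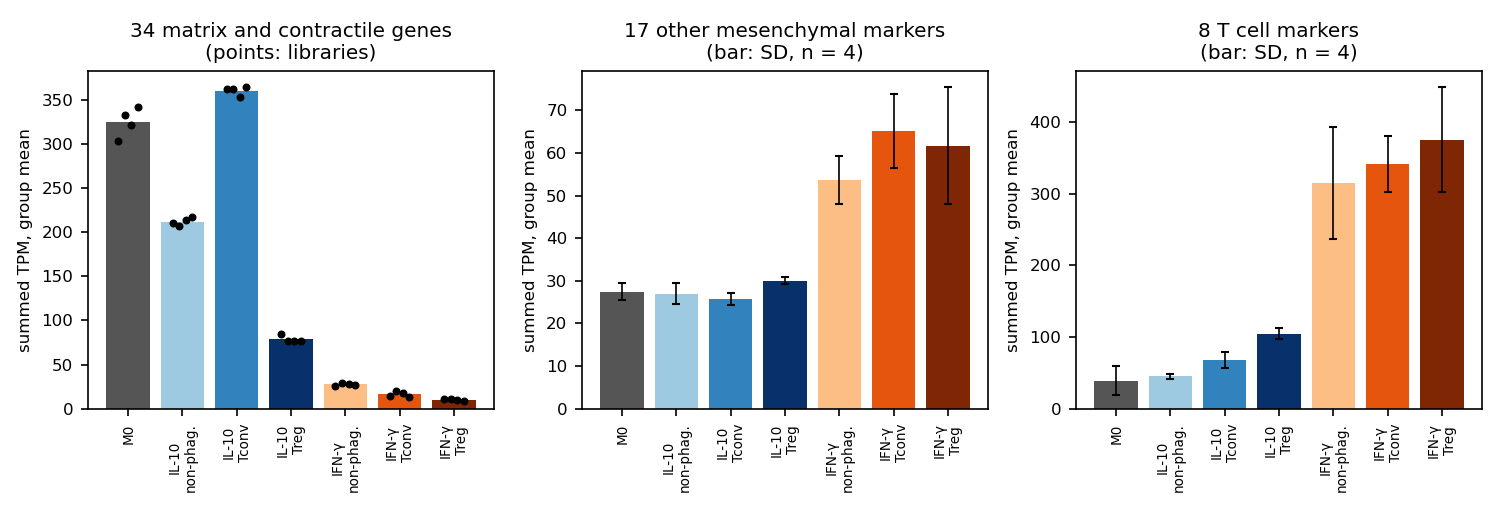
Summed TPM per group (bars, linear axes from 0) of the 34 genes with libraries as points, and of the 17 other mesenchymal markers and 8 T cell markers with the SD (n = 4). The 34 genes peak at 361 TPM in IL-10 Tconv-phagocytic libraries and drop to 10.005 TPM in IFN-γ Treg-phagocytic libraries, while both marker sums are highest under IFN-γ.

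Genes of the same pathways outside the set were listed with earlier results known and tested over all genes. Their adjusted p-values therefore describe these libraries and are not independent support. Of 22 further matrix genes tested (of 40), limma called 1 higher and 5 lower in IL-10 Treg- than in Tconv-phagocytic libraries, against 0.411% and 0.968% of all genes. The abundant Spp1 (osteopontin), a secreted product of macrophages, was the one that rose, from 1633 to 1821 TPM in the mean (log2 difference 0.15, SE 0.03, adjusted p = 0.0411). Ecm1 and Tgfbi, the next in level, had means of 339 and 126 TPM in Tconv-phagocytic and 316 and 111 TPM in Treg-phagocytic libraries and were not called. The median over the 22 genes was -0.38. In IL-10 Tconv- against non-phagocytic libraries 4 rose and 3 fell, where 4.41% of all genes were called higher and 1.7% lower. In IFN-γ non-phagocytic against M0 libraries 18 fell and 0 rose, where 30.8% of all genes were called lower and 23.8% higher.

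Among 20 collagen biosynthesis genes tested (of 24), the most abundant, the general folding enzymes P4hb and Ppib, had means of 505 and 330 TPM in IL-10 Treg-phagocytic libraries against 500 and 352 TPM in Tconv-phagocytic ones, and Colgalt1, which adds galactose to collagen, 101 against 104 TPM. None of these 3 was called. In the same comparison 5 of the 20 fell and 0 rose, where 0.968% of all genes were called lower and 0.411% higher. Fkbp10, a collagen prolyl isomerase, fell by 1.31 in log2 units (adjusted p = 0.000332). Loxl2, a lysyl oxidase, fell by 1.62 (adjusted p = 0.000788), and Bmp1, the procollagen C-proteinase, fell by 1.09 (adjusted p = 0.00137). Adamts2, the N-proteinase, fell by 0.69 (adjusted p = 0.0114), and Loxl3 fell by 0.53 (adjusted p = 0.000695), all by limma. The median over the 20 was -0.10.

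In IL-10 Treg- against Tconv-phagocytic libraries 0.968% of all genes were called lower and 0.411% higher. Of 20 TGF-β pathway genes tested (of 23), 2 fell and 0 rose there. Among them was Tgfb3, a ligand, which fell by 1.45 in log2 units (adjusted p = 8.5e-05 by limma). The ligand Tgfb1 was at 185 TPM in both groups in the mean and was not called, nor were Itgb5, an integrin chain, and the repressor Tgif1. Of 15 other SRF-linked and contractile genes tested (of 20), 4 fell and 0 rose in that comparison. Actg2, the smooth muscle γ-actin, fell by 1.41 (adjusted p = 0.0091), and Mylk, myosin light chain kinase, fell by 0.88 (adjusted p = 0.014). Cnn3, a calponin, fell by 0.73 (adjusted p = 0.00718), and Tpm1, a tropomyosin, fell by 0.30 (adjusted p = 0.0178). Tagln2, Flna and Tpm4, widely expressed actin-binding proteins, had the highest levels of that list and were not called.

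The genes outside the set whose level ran most like it were found over the 16 M0 and IL-10 libraries, by Pearson correlation of log2 level with the mean standardised level of the 31 genes, among 10743 genes. Among the closest were Tnc (r = 0.989), Ccn1 (0.984), Aebp1 (0.982), Inhba (0.964), Mmp2 (0.962), Bmp1 (0.96), Grem1 (0.959), Serpinf1 (0.959) and Csf1 (0.956). These libraries form 4 groups, so each r describes the order of 4 group means more than 16 independent points. Tnc (tenascin-C) and Ccn1 are matricellular proteins, Aebp1 a collagen-binding protein, Inhba an activin chain, Mmp2 a gelatinase, Grem1 a BMP antagonist and Serpinf1 a secreted serpin. Csf1, the growth factor on which macrophages depend, had means of 16.7 TPM in M0, 8.91, 14.6 and 5.17 TPM in IL-10 non-phagocytic, Tconv- and Treg-phagocytic libraries, and 1.99, 3.08 and 2.87 TPM under IFN-γ.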

How the data were processed

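Poly(A) RNA of 28 libraries was analysed. Per the labels' protocols the authors extracted it with RNAiso PLUS and made strand-specific libraries. STAR, RSEM and mm10 are named in the submitters' processing notes. The deposited files hold TPM for Ensembl genes, per the file headers, and no read counts. Symbols matched 55141 of 55487 gene IDs. Depth was estimated from 14527 genes with 1 transcript of 500 to 2000 nt, where 89.4% to 92.8% of low values lay within 0.15 reads of a whole number. TPM was divided by a trimmed mean of log2 ratios (30% and 5% trimmed), and log2(TPM + 1) was tested with limma 3.58.1 (R 4.3.3; lmFit, eBayes with trend) in the 8 libraries of the groups compared, because the spread differed between IFN-γ and other groups (array weights of 0.339 to 0.466 against 1.61 to 2.16). Comparisons of IFN-γ with IL-10 or M0 libraries still pool 1 variance per gene over groups of unequal spread. The 13631 genes reaching 1 TPM in 4 or more libraries entered, with Benjamini-Hochberg adjustment over all of them and a threshold of 0.05. A log2 difference with a pseudocount of 1 understates the change of low genes. The test was tested on simulated data. The genes of the set and all lists were chosen with earlier results of these data known. Genes of the set with a mean of at least 5 TPM in a group have every value printed, and other lists name their 3 most abundant genes and any called where 5 or fewer were called. Some cell type markers at low levels were named besides these. Alternatives covered scaling, pseudocount, filter, fit, replicate block, dye, a log2 minimum and leaving out each library. Gene positions are from GENCODE vM21 (GRCm38, the assembly of mm10). No library was left out. A gene that the naming rule would have named is not reported here.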

Additional observations from a re-analysis of the deposited data

Results flagged for a closer look

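Of 129 groups of 4 libraries with a mean of at least 1 TPM for a gene of the set, 5 held a library far from the other 3, where chance flags about 1 group in 20. Col3a1 was at 5.56 TPM in the IL-10 Tconv-phagocytic library Ax647-2 and at 3.57 to 3.84 TPM in the other 3. Tpm2 was at 6.09 TPM in the IL-10 Tconv-phagocytic library BV421-2 and at 8.47 to 8.83 TPM in the other 3. Col5a1 was at 3.06 TPM in the IL-10 Tconv-phagocytic library Ax647-2, against 4.08 to 4.26 TPM. Col6a2 was at 3.8 TPM in IL-10 non-phagocytic replicate 4, against 2.85 to 2.97 TPM, and Fstl1 at 2.04 TPM in replicate 1 of that group, against 2.61 to 2.66 TPM. Sparc stood higher in Tconv-phagocytic than in non-phagocytic libraries under IL-10, by 0.90 on the log2 scale, and lower under IFN-γ, at -1.44, with no overlap in either. Fstl1 did the same, at 0.75 under IL-10 and -0.56 under IFN-γ. Its IFN-γ means were only 0.095 TPM in Tconv-phagocytic and 0.58 TPM in non-phagocytic libraries, on about 4.8 and 25.8 reads in all. The difference between the cytokines was not tested for these genes.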

How the results depend on the processing

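Counts of the 31 genes called are given here in the order main value, then alternative. IL-10 Treg- against Tconv-phagocytic, 25: 1 in BV421 libraries alone and 0 in Ax647 libraries alone (2 against 2). IL-10 Treg- against non-phagocytic, 24: 11 with a log2 difference of at least 1. IL-10 Tconv- against non-phagocytic, 22: 14 of 18 tested with a filter of 5 TPM, 12 in 1 fit of all 28 libraries and 2 with a log2 difference of at least 1. IFN-γ Treg- against Tconv-phagocytic, 1: 9 in 1 fit of all libraries (2 higher, 7 lower), 2 with variance weights, and 0 with a filter of 5 TPM, within either dye, with the log2 minimum or with the replicate block. IFN-γ Treg- against non-phagocytic, 2: 15 in 1 fit of all libraries (3 higher, 12 lower), 5 with variance weights, 1 with no filter and 0 with the replicate block. IFN-γ Tconv- against non-phagocytic, 0: 1 in 1 fit of all libraries. The filter of 5 TPM left 18 of 18 called in IFN-γ non-phagocytic against IL-10 non-phagocytic and against M0, since fewer genes entered, and IL-10 non-phagocytic against M0, 24 lower and 1 higher, gave 0 with the log2 minimum. Leaving out 1 library gave 24 to 26, 20 to 22, 19 to 23, 1 to 2, 1 to 3, 0 to 0, 25 to 28, 29 to 31 and 21 to 25 over the 9 comparisons, in the order above with IFN-γ against IL-10, IFN-γ against M0 and IL-10 against M0 last, and 0 to 0 for dye.

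Replicate numbers share only a number (correlations of deviations of -0.067 to 0.086, with 0 to 3 of 4 libraries nearest to their own number). With the replicate block the 9 counts were 23, 19, 15, 0, 0, 0, 26, 29 and 23. Over all genes, 1 fit of all libraries called 107, 612, 253, 4171, 3629 and 107 genes in the first 6 comparisons and 1815 in IL-10 against M0, against 188, 1519, 833, 1607, 1111, 1 and 3637, and the block called 66, 797, 282, 958, 452 and 0 in the first 6. Of 157 single calls, 135 held in 1 fit of all libraries, 135 with the block, 156 with median scaling, 155 without scaling and 139 with no filter, and no direction reversed. The low depth of the IFN-γ libraries limits what can be seen below about 1 TPM.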
